A study of Mus musculus with 4 samples.

Results

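The Cyp3a genes of the mouse encode cytochrome P450 enzymes of the endoplasmic reticulum that oxidise steroids, bile acids and a large share of all drugs. The genes described are 8 members of this subfamily, chosen by name: Cyp3a11, Cyp3a13, Cyp3a16, Cyp3a25, Cyp3a41a, Cyp3a41b, Cyp3a44 and Cyp3a59. They are 8 of the 46603 genes counted, and 4 of them (Cyp3a11, Cyp3a13, Cyp3a25 and Cyp3a59) are among the 13001 genes that passed the filter on low counts and could be tested. In these livers Cyp3a11 took between 66.6% and 78.7% of the counts on the 8 genes, Cyp3a25 and Cyp3a13 made up nearly all of the rest, Cyp3a59 was low, and the other 4 genes held between 0 and 4 counts in a library. In edgeR's quasi-likelihood test, 0 members passed an adjusted p-value of 0.05 between the groups, a call that 3 genes or 0.0231% of all genes tested reached, and 0 members had an unadjusted p under 0.05, against 966 or 7.43% of all genes tested. The DESeq2 Wald test, edgeR's exact test and limma-voom also called 0 members at an adjusted p-value of 0.05.

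Liver RNA was sequenced from 4 male HuR flox/flox mice on a C57BL/6J background after 4 weeks of a Western diet with fructose and glucose in the drinking water (WDSW). Control mice 1 and 2 had received AAV8-TBGP-GFP by tail vein, and HuR hKO mice 3 and 4 had received AAV8-TBGP-Cre, in which a promoter active in hepatocytes drives the recombinase that deletes HuR, an RNA-binding protein encoded by Elavl1. All 4 mice thus carried the floxed allele, an AAV8 vector and the diet, the age of these mice is not given, and only hepatocytes are targeted, so other liver cells keep the gene. The comparison asks how the loss of HuR in hepatocytes alters the liver under this diet.

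The count of the targeted gene ran against the labels. Elavl1 held 377 and 347 counts in control mice 1 and 2 and 541 and 648 counts in the mice labelled HuR hKO. These are 28.4 and 25.9 against 37.7 and 34.4 CPM, the counts relative to the TMM-scaled size of the library, with no overlap between the groups. The log2 fold change was 0.41 ± 0.135 (SE) with an unadjusted p of 0.0160 and an adjusted p-value of 0.545 in edgeR's quasi-likelihood test. The count of a gene does not show where on it the reads lie, and mice 3 and 4 are therefore called the libraries labelled HuR hKO. The libraries held between 13032095 and 19715577 counts, mouse 4 being the deepest, and between 17908 and 18911 genes had a count. Every pair of libraries differed by more than sampling noise. Nothing beyond the mouse numbers describes the replicates, and p-values and intervals measure the spread between these 4 mice. In edgeR's test the spread of a gene is estimated in part from the other genes tested, not from its own 4 values alone.

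Transcription of Cyp3a genes is classically controlled by the pregnane X receptor (PXR, Nr1i2) and the constitutive androstane receptor (CAR, Nr1i3), which bind pairs of half-sites as partners of RXR and respond to drugs, bile acids and steroids. HNF4α, forkhead factors and the glucocorticoid receptor set the basal level in hepatocytes. Cyp3a11 is the main member of adult mouse liver, Cyp3a16 is best known from the fetal and newborn liver, and Cyp3a41a, Cyp3a41b and Cyp3a44 are known for expression that is largely limited to females.

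Apart from Cyp3a13, the genes lie in 1 cluster on chromosome 5 of GRCm38 (GENCODE M21). From Cyp3a57 to Cyp3a59, which is the last member, it spans 768.01 kb. Cyp3a11 (ENSMUSG00000056035) lies at chr5:145854426-145879964 on the minus strand. Cyp3a25 (ENSMUSG00000029630) lies at chr5:145977194-146009618 on the minus strand and Cyp3a59 (ENSMUSG00000061292) at chr5:146079257-146113287 on the plus strand. Cyp3a25 and Cyp3a59 are thus neighbours that are transcribed away from each other, with starts 69.6 kb apart. Cyp3a16, Cyp3a41b, Cyp3a41a and Cyp3a44 lie on the other side of Cyp3a11, with starts 410.2, 295.2, 159.8 and 74.1 kb from it. Cyp3a13 (ENSMUSG00000029727) stands alone at chr5:137892932-137921619, 7.96 Mb from Cyp3a11, and shares its strand there with the overlapping annotation Gm15502. The 3 expressed members of the cluster were its outermost 3 on 1 side, as the map of the cluster shows.

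**Figure D1:**
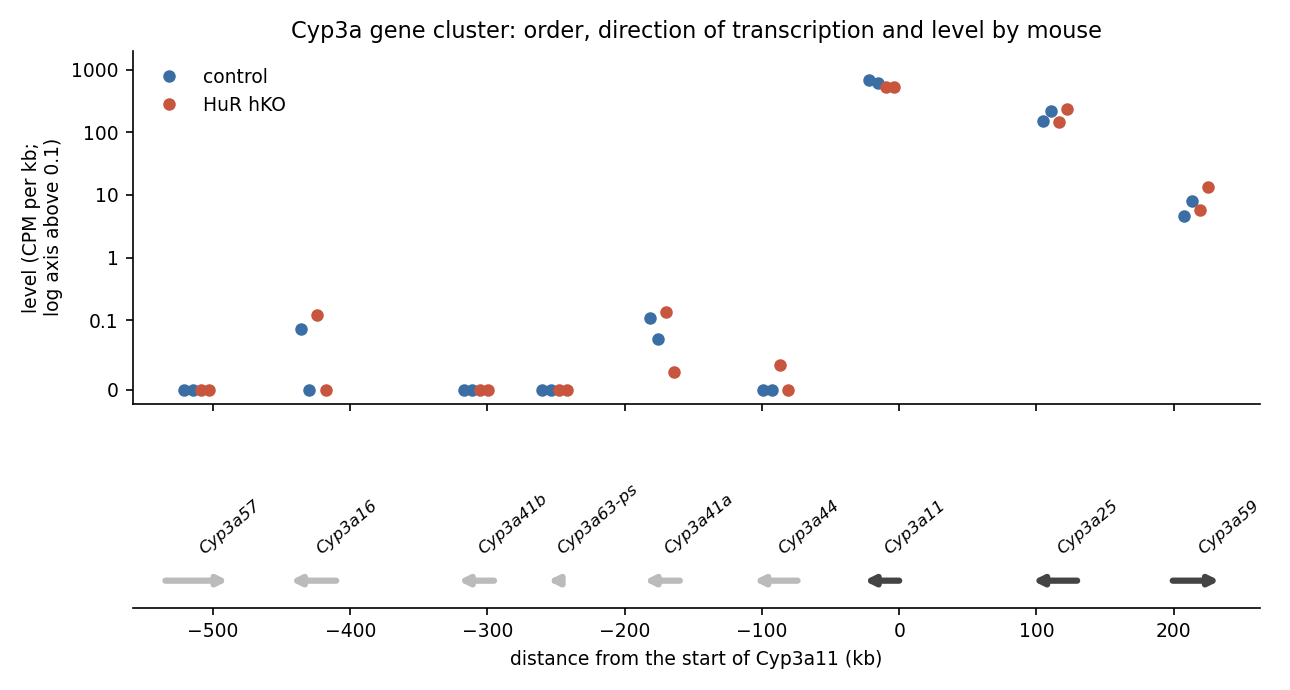
Order and direction of the Cyp3a genes of the cluster as distance in kb from the start of Cyp3a11 (arrows, dark where a level exceeds 1 CPM per kb) and their level by mouse in CPM per kb of transcript (points, log axis above 0.1). Cyp3a11, Cyp3a25 and Cyp3a59 lay between 4.65 and 683 CPM per kb, and every other gene of the cluster was below 0.14.

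The sequence before the start of these genes groups them by likeness. Below are the 250 bases before the RefSeq start (GRCm38.p6) of the abundant gene Cyp3a11 (chr5:145879855-145880104, minus strand), of the near-silent Cyp3a41a (chr5:145720137-145720386, minus strand), and of the divergent pair Cyp3a25 (chr5:146009619-146009868, minus strand) and Cyp3a59 (chr5:146079008-146079257, plus strand). They are written 5′ to 3′ along the gene. Capitals mark the nuclear receptor half-sites AGGTCA and AGTTCA, the forkhead motif TGTTTAC and the HNF4-type motif CAAAGTCCA on either strand, none of which overlap.
Cyp3a11: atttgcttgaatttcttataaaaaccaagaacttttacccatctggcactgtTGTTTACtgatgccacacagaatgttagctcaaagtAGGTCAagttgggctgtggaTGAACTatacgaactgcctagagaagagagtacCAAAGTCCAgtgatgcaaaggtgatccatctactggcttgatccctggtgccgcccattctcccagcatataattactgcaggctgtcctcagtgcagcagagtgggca
Cyp3a41a: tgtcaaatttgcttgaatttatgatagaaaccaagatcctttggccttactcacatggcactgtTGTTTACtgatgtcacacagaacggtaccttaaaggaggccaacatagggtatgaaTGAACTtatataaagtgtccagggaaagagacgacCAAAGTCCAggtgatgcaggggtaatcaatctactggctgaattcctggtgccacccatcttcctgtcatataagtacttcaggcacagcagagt
Cyp3a25: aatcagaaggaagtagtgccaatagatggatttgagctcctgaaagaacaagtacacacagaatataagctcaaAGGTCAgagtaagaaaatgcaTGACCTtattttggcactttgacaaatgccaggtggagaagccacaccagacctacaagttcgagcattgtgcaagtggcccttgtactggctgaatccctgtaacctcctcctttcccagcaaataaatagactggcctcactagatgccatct
Cyp3a59: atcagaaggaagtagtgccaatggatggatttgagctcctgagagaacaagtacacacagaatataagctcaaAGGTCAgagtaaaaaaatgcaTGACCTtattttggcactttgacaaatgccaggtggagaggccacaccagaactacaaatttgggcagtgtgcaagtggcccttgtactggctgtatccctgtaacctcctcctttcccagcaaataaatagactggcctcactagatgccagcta
The windows of Cyp3a25 and Cyp3a59 were 94.8% identical in a global alignment, and each held AGGTCA on both strands, at 171 to 176 and 150 to 155 bases before the start of Cyp3a25 and 1 base farther out in Cyp3a59. Neither held TGTTTAC or CAAAGTCCA. Cyp3a57, which held 0 counts in every library, had a window 88.9% identical to that of Cyp3a25 and 90.1% to that of Cyp3a59. Its window also held AGGTCA on both strands and neither TGTTTAC nor CAAAGTCCA. Cyp3a25 has 2 starts in this annotation, and its motifs were counted only in the window shown. The window of Cyp3a11 was 72.9% identical to that of Cyp3a41a and 55.6% to that of Cyp3a25. It held 1 match of each of the 4 motifs, with TGTTTAC at 192 to 198 bases and CAAAGTCCA at 101 to 109 bases before the start. The RefSeq start of Cyp3a11 lies inside its GENCODE position given above. The part of the window nearest that start, with CAAAGTCCA, thus lies within the gene in GENCODE.

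TGTTTAC was found in 5 of the 8 members (Cyp3a11, Cyp3a16, Cyp3a41a, Cyp3a41b and Cyp3a44) and in 3.17% of all 32851 promoter windows of this length in the table. CAAAGTCCA was found in 4 of the 8 (Cyp3a11, Cyp3a16, Cyp3a41a and Cyp3a41b) and in 0.384% of all windows. AGGTCA was found in 4 of the 8 (Cyp3a11, Cyp3a25, Cyp3a44 and Cyp3a59) and 14.0% of all, and AGTTCA in 3 of the 8 (Cyp3a11, Cyp3a41a and Cyp3a41b) and 11.8% of all. Cyp3a11 thus shared its TGTTTAC and CAAAGTCCA with Cyp3a16, Cyp3a41a and Cyp3a41b, which were near 0 in all 4 livers and held no AGGTCA. Cyp3a44, also near 0, did hold AGGTCA, as did Cyp3a57, which had 0 counts in every library. The windows of Cyp3a16, Cyp3a41a, Cyp3a41b and Cyp3a44 were between 91.3% and 99.6% identical to each other, so their matches are not independent. The motifs were also named after values were seen, and the shares over all windows are a description, not a test of enrichment. A match describes the sequence only, and distal regions were not searched. The window of Cyp3a13 held none of the 4 motifs.

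The transcripts showed how far reads can tell these genes apart. The longest coding transcripts of Cyp3a41a and Cyp3a41b were 99.7% identical, and 82.9% of all stretches of 150 bases of Cyp3a41a also occur in a transcript of Cyp3a41b. Cyp3a25 and Cyp3a59 were 96.5% identical, and 26.8% of the stretches of 50 bases of Cyp3a25 but 0.702% of those of 150 bases occur in a transcript of Cyp3a59 or of another gene. Cyp3a11 shared 14.8% of its stretches of 50 bases and none of 150 bases with transcripts of other genes. Cyp3a13 shared no stretch of 50 bases with any other gene and was at most 57.9% identical to another member. The submitters' processing notes name RSEM, which divides reads that match several genes by estimate. The read length is not given in the sources used here, and the levels of Cyp3a25 and Cyp3a59, and those of Cyp3a41a and Cyp3a41b, are uncertain to the extent that reads were divided between them.

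**Figure D2:**
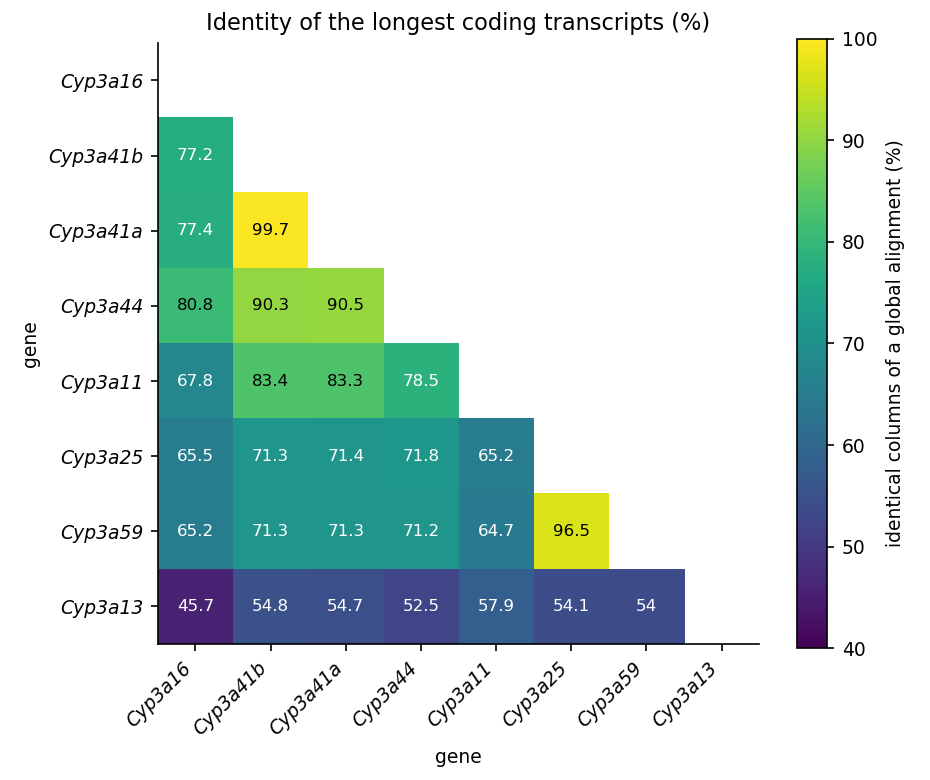
Percentage of identical columns in a global alignment of the longest coding transcripts of each pair of members, with both axes listing the genes. The pairs Cyp3a41a with Cyp3a41b (99.7%) and Cyp3a25 with Cyp3a59 (96.5%) stand out, and Cyp3a13 is below 58% with every other member.

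Per kb of transcript, the order of levels was the same in all 4 mice: Cyp3a11, Cyp3a25, Cyp3a13 and Cyp3a59, with no overlap between neighbours in that order. Cyp3a11 lay between 524 and 683 CPM per kb, Cyp3a25 between 147 and 235, Cyp3a13 between 38.3 and 43.6, and Cyp3a59 between 4.65 and 13.3. By its count Cyp3a11 ranked between 86 and 112 among all genes of a library. The hepatocyte markers Alb, Ttr, Apoa1, Apob, Asgr1, Serpina1c and Tat were abundant in all 4 libraries, with a summed level between 65064 and 73193 CPM.

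Cyp3a11, the enzyme that carries most of the Cyp3a activity of adult mouse liver, held 21260 and 19031 counts in control mice 1 and 2 and 17602 and 23455 counts in mice 3 and 4. After scaling these are 1600 and 1421 CPM against 1228 and 1245 CPM. Both libraries labelled HuR hKO lay below both control libraries, an order that 2449 genes or 18.8% of all genes tested showed (19.3% showed the reverse order). The means were 1510 ± 127 and 1237 ± 12.2 CPM (SD, n = 2 each), a ratio of 0.819. The log2 fold change was -0.29 ± 0.156 (SE) with a 95% interval from -0.65 to 0.07, an unadjusted p of 0.100 and an adjusted p-value of 0.713. The difference did not pass the test. Without scaling for library size, which shifted the median of all genes to 0.31, the log2 fold change was 0.03, and under every other alternative run it lay between -0.37 and -0.21. In bulk RNA, a lower level per cell and a smaller share of the cells that express the gene cannot be told apart.

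Cyp3a25, a hepatic member with overlapping substrates, held 4059 and 5944 counts in the control mice and 4217 and 8842 counts in mice 3 and 4. Its levels were 305 and 444 CPM in mice 1 and 2 and 294 and 469 CPM in mice 3 and 4. The groups overlapped completely, and the mice within each group differed: mouse 2 was 1.45 times mouse 1, and mouse 4 was 1.596 times mouse 3. The means were 375 ± 97.8 and 382 ± 124 CPM (SD, n = 2 each), with a log2 fold change of 0.028 ± 0.250 (SE), a 95% interval from -0.55 to 0.60 and an adjusted p-value of 0.989.

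Cyp3a59, its neighbour in the cluster, was likewise higher in mouse 2 than in mouse 1 and in mouse 4 than in mouse 3. It held 123, 213, 161 and 497 counts in mice 1 to 4, or 9.26, 15.9, 11.2 and 26.4 CPM. Mouse 4 was highest and mouse 1 lowest, and the groups overlapped because mouse 2 lay above mouse 3. Mouse 2 was 1.72 times mouse 1 and mouse 4 was 2.35 times mouse 3. The means were 12.6 ± 4.70 and 18.8 ± 10.7 CPM (SD, n = 2 each). The log2 fold change of 0.59 ± 0.387 (SE) was the largest of the 4, with a 95% interval from -0.30 to 1.48, an unadjusted p of 0.164 and an adjusted p-value of 0.768. It rests on mouse 4: without that mouse the log2 fold change was -0.16, and without control mouse 2 or without mouse 3 it was 1.04 and 1.05.

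In Cyp3a25 and Cyp3a59 the difference between mice of 1 group was thus larger than the difference between the groups. This pattern within the groups was looked for after the values of these genes were seen. Of the 13001 genes tested, 202 (1.55%) had ratios of mouse 2 to mouse 1 and of mouse 4 to mouse 3 at least as large as those of Cyp3a25, and 47 (0.362%) at least as large as those of Cyp3a59. The 2 genes share sequence, and how many reads were divided between them is not known, so their values may not be independent. The genes closest to Cyp3a59 in their pattern over the 4 mice, by the root mean square difference of centred log2 CPM among 11160 genes, were Dpt (0.0618), Tstd1 (0.0955) and Ripor2 (0.105). For Cyp3a11 they were Zfr (0.0084), Uap1 (0.0095) and Cbx1 (0.0103). With 4 mice such likeness is a description only.

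Cyp3a13, the member outside the cluster, which is also expressed in the intestine, varied least. It held 1566, 1641, 1623 and 2425 counts in mice 1 to 4, or 118, 123, 113 and 129 CPM. The highest and the lowest value were both in libraries labelled HuR hKO. The means were 120 ± 3.30 and 121 ± 10.97 CPM (SD, n = 2 each), with a log2 fold change of 0.0099 ± 0.131 (SE), a 95% interval from -0.29 to 0.31 and an adjusted p-value of 0.992. Its interval is the narrowest of the 4. The intervals of Cyp3a11, Cyp3a25 and Cyp3a13 leave out a change of 1.8-fold in either direction, and that of Cyp3a59 contains a rise of that size. The intestinal markers Alpi and Cdx2 were at 0 in all 4 libraries, and Sis and Muc2 held at most 7 counts. Vil1 held 21 counts in control mouse 1 and 1, 2 and 3 counts in mice 2 to 4. Of these markers only Fabp2, which liver also expresses, was tested (log2 fold change 0.36, adjusted p-value 0.779 in the same edgeR test).

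**Figure D3:**
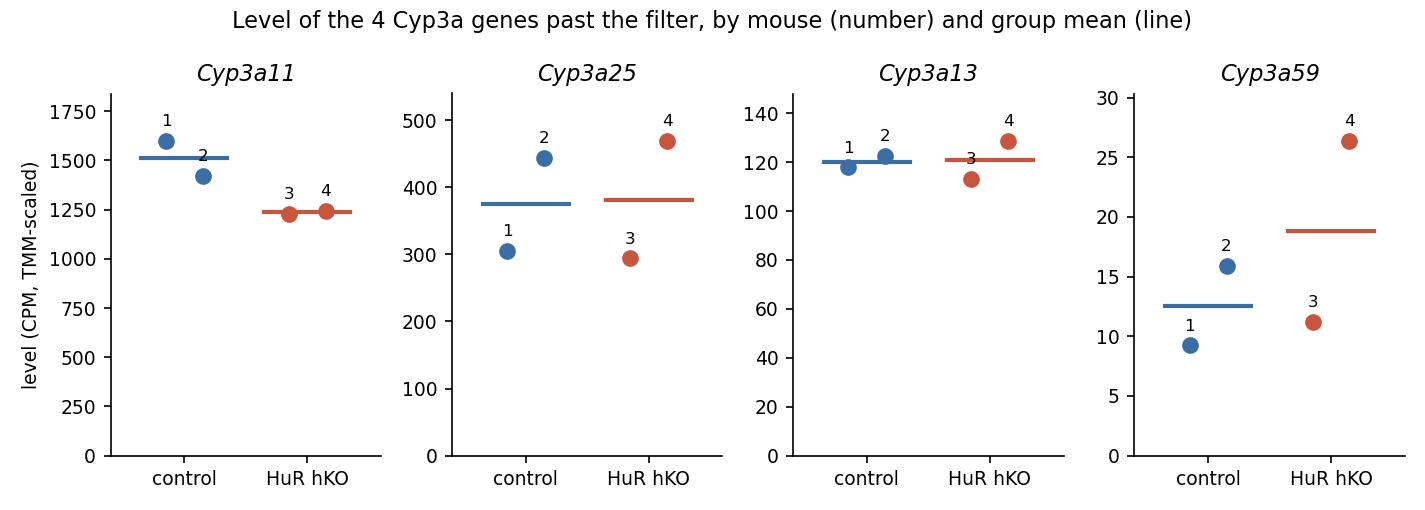
Level of the 4 tested members in TMM-scaled CPM (vertical axes from 0) by group, with 1 point for each mouse, its number above the point, and a line at the group mean. The points of Cyp3a11 do not overlap between groups (1228 and 1245 against 1421 and 1600 CPM), while mice 2 and 4 lie above mice 1 and 3 in Cyp3a25 and Cyp3a59.

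The 4 other members were at the limit of detection in both groups. Cyp3a16 held 2 and 0 counts in the control mice and 3 and 0 in mice 3 and 4. Cyp3a41a held 3, 2, 4 and 1 counts in mice 1 to 4, Cyp3a44 held 1 count in mouse 3 and none elsewhere, and Cyp3a41b held 0 in every library. Where a library holds 0, the true level could still reach that of 3 counts (0.159 to 0.226 CPM, by counting error alone). The sum of the 4 genes was 5, 2, 8 and 1 counts, with 1 mouse of each group near 0, and a difference between the groups was not detectable at this depth. The further Cyp3a genes Cyp3a57 and Cyp3a63-ps, a pseudogene, held 0 counts in every library.

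The 3 members known as female-predominant (Cyp3a41a, Cyp3a41b and Cyp3a44) were thus near 0 in the male livers of both labelled groups. The sex matched the labels: Xist held between 1 and 8 counts in a library, while Ddx3y of the Y chromosome lay between 45.6 and 57.8 CPM. Female-biased P450 genes outside the Cyp3a cluster gave other values. Cyp2a4 lay at 0.828 and 0.523 CPM in the control mice and at 28.1 and 10.6 CPM in mice 3 and 4, with a log2 fold change of 4.81 ± 0.567 (SE), an unadjusted p of 2.52e-05 and an adjusted p-value of 0.0636. Cyp2b9 lay at 6.47 and 8.88 against 16.7 and 27.2 CPM, and Cyp2b13 at 0.677 and 1.05 against 3.91 and 5.203 CPM, with adjusted p-values of 0.137 and 0.103 from the same edgeR test. Of 16 female-biased genes outside Cyp3a, 8 could be tested, and 5 had an unadjusted p under 0.05 with a higher level and 1 (Cyp2c40) with a lower level. Cyp2a4 (11 and 7 control counts) and Cyp2b13 (9 and 14) passed the filter only through mice 3 and 4 (403 and 200, 56 and 98 counts). The female-biased Cyp2c69, which did not pass it, held 8 and 11 against 2 and 5 counts. The numbers of genes in each direction thus depend on the filter and are a description only. Among 18 of 19 male-biased genes tested, 8 had an unadjusted p under 0.05 with a lower level and 0 with a higher one, led by C6, Ugt2b38 and Susd4 (log2 fold changes -0.99, -1.21 and -0.67). Without control mouse 1, 5 male-biased genes were lower and 1 higher, and without mouse 3 or control mouse 2, 0 female-biased genes were lower. Over all genes tested, 525 had an unadjusted p under 0.05 with a higher level and 441 with a lower level, and 0 genes of either list passed an adjusted p-value of 0.05 in edgeR.

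The 8 genes together held 27013 and 26831 counts in the control mice and 23611 and 35220 counts in mice 3 and 4, which is 0.207%, 0.197%, 0.171% and 0.179% of the library. In scaled CPM the sums were 2033 and 2003 against 1647 and 1870, or 2018 ± 21.03 and 1758 ± 157 (SD, n = 2 each). The log2 ratio of -0.20 is given without a test. A sum does not depend on how reads were divided between near-identical copies, but Cyp3a11 dominates it.

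The make-up of the family overlapped between the groups for Cyp3a11, Cyp3a25 and Cyp3a59, and not for Cyp3a13. Cyp3a11 took 78.7% (95% Wilson interval 78.2 to 79.2) and 70.9% (70.4 to 71.5) of the family's counts in control mice 1 and 2, and 74.6% (74.0 to 75.1) and 66.6% (66.1 to 67.1) in mice 3 and 4. Cyp3a25 took 15.03% and 22.2% in the control mice and 17.9% and 25.1% in mice 3 and 4, so its share was higher in mouse 2 than in mouse 3. Cyp3a13 took 5.80% and 6.12% against 6.87% and 6.89%, a difference given without a test. Its own level overlapped (118 and 123 against 113 and 129 CPM), while the family sum below it was 2033 and 2003 against 1647 and 1870 CPM. In CPM, 18.8% of all genes tested lay lower in both libraries labelled HuR hKO than in both control libraries, and 19.3% lay higher. Cyp3a59 took 0.455% and 0.794% against 0.682% and 1.41%. Per kb, the ratio of Cyp3a25 to Cyp3a11 was 0.224, 0.366, 0.281 and 0.442 in mice 1 to 4, and that of Cyp3a25 to Cyp3a59 was 32.8, 27.8, 26.1 and 17.7. These intervals cover counting error only and are far narrower than the spread between mice.

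**Figure D4:**
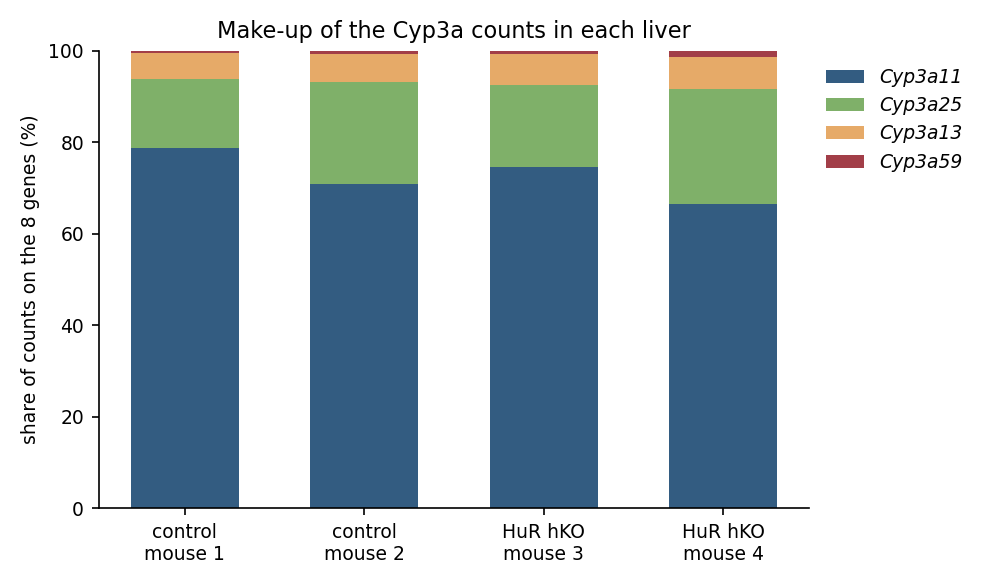
Share of the counts on the 8 Cyp3a genes, in percent from 0 to 100, taken by each of the 4 detected members in each mouse. Cyp3a11 takes between 66.6% and 78.7%, and mice 2 and 4 have the larger shares of Cyp3a25 (22.2% and 25.1%) in their groups.

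The factors that act on Cyp3a genes gave no call. Nr1i2, which encodes PXR, lay at 89.4 and 94.8 CPM in the control mice and 98.0 and 123 CPM in mice 3 and 4, with a log2 fold change of 0.26 ± 0.148 (SE) and an adjusted p-value of 0.729. Nr1i3, which encodes CAR, lay at 329 and 442 against 317 and 413 CPM, with a log2 fold change of -0.08 ± 0.194. Like Cyp3a25, both Nr1i2 and Nr1i3 were higher in mouse 2 than in mouse 1 and in mouse 4 than in mouse 3. The share of all genes with this order was not counted. Hnf4a (612, 392, 524 and 441 CPM in mice 1 to 4) and Rxra (578, 460, 547 and 531 CPM) had the opposite order. Their partner Rxra (0.06 ± 0.159), Hnf4a (-0.06 ± 0.217), the glucocorticoid receptor gene Nr3c1 (-0.0096 ± 0.126) and the corepressor gene Nr0b2 (0.09 ± 0.274) had log2 fold changes smaller than their standard errors. Of the 22 regulators listed, 21 were tested, 8 were fitted higher and 13 lower, and 1 had an unadjusted p under 0.05. That 1 was Foxa1, a forkhead factor, at 33.0 and 15.4 against 14.999 and 12.8 CPM (log2 fold change -0.80 ± 0.312, adjusted p-value 0.612 in edgeR), where control mouse 1 stands apart from the other 3 libraries. The number of regulators with a lower level at this threshold was 0 without control mouse 1, 4 without control mouse 2 and 2 without mouse 4. The vitamin D receptor gene Vdr held at most 3 counts.

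P450 enzymes need electrons from NADPH-cytochrome P450 reductase (Por) or cytochrome b5 (Cyb5a), and heme in the active site. Por lay at 548 and 669 CPM in the control mice and 502 and 732 CPM in mice 3 and 4. Mice 2 and 4 lay above mice 1 and 3, an order not counted over all genes. Cyb5a had the same order (811, 985, 893 and 1212 CPM in mice 1 to 4), and the other genes of electron transfer did not. The log2 fold change of Por was 0.02 ± 0.206, with an adjusted p-value of 0.9904 in edgeR. Of 5 genes of electron transfer, 4 were fitted higher and 1 lower, and 0 had an unadjusted p under 0.05, with the smallest p for Cyb5a, Cyb5b and Cyb5r3 (log2 fold changes 0.23, -0.10 and 0.09). Of 10 genes of heme synthesis and breakdown, 4 were fitted higher and 6 lower, and 0 had an unadjusted p under 0.05, led by Uros, Ppox and Hmox2 (log2 fold changes -0.33, 0.20 and 0.18).

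**Figure D5:**
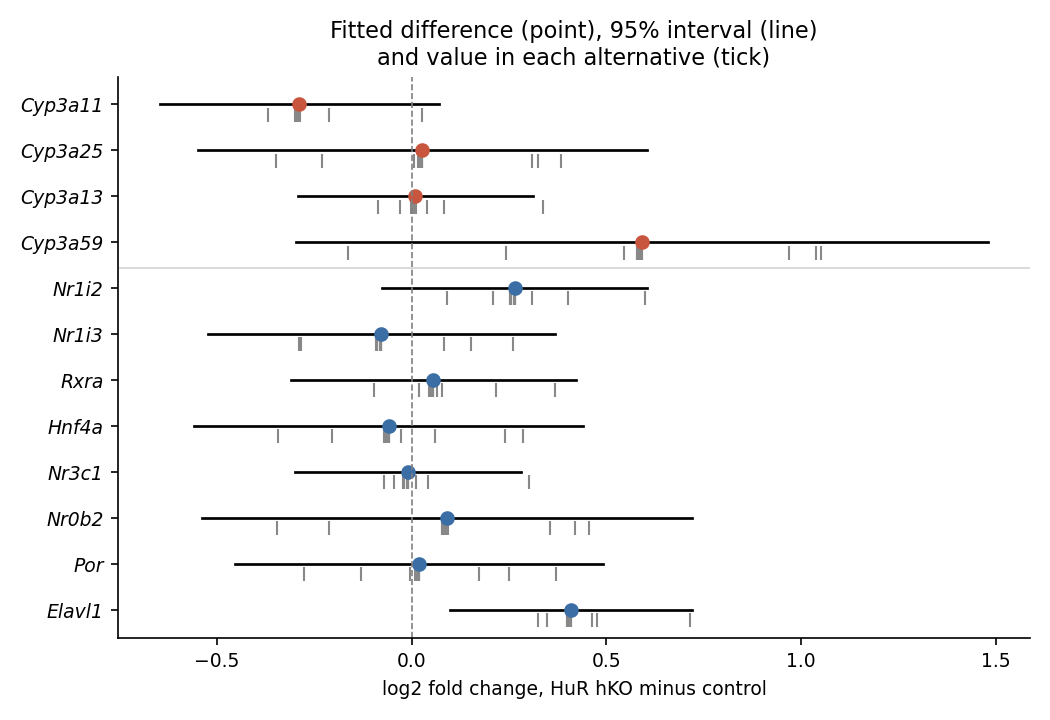
Log2 fold change (HuR hKO minus control) of the 4 tested members (red) and of regulators, Por and Elavl1 (blue) with 95% intervals (lines) and the value under each alternative setting or left-out mouse (grey ticks). The intervals of all 4 members and of every regulator shown contain 0, that of Elavl1 (0.41) does not, and the ticks of Cyp3a59 run from -0.16 to 1.05.

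Other targets of CAR and PXR were fitted in both directions. Of 22 listed, 20 were tested, 10 were fitted higher and 10 lower, and the median log2 fold change was -0.01, against 0.0020 over all genes tested. The transporter gene Slco1a4 (17.3 and 11.6 against 24.4 and 28.6 CPM) and the glutathione transferase gene Gsta1 (3.46 and 5.75 against 17.02 and 6.90 CPM) were among 4 with an unadjusted p under 0.05 and a higher level. Ugt1a1, which conjugates bilirubin, was the 1 with a lower level (694 and 710 against 473 and 557 CPM). Their adjusted p-values in edgeR were 0.312, 0.517 and 0.556. The number with a lower level was 6 without mouse 4 and 0 without control mouse 2 or mouse 3, and the number with a higher level was 2 without control mouse 1 or mouse 3. Of all genes tested, 276 or 2.12% passed a fold of 1.8 with an unadjusted p under 0.05, and 0 of the 4 Cyp3a genes tested did, against 3 of these targets.

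Several states of the liver in which Cyp3a11 levels are known to vary were measured beside it. Of 17 acute phase genes, 7 had an unadjusted p under 0.05 with a higher level and 1 with a lower level, against 7.43% of all genes in either direction, and the median log2 fold change was 0.22. The number with a lower level was 2 without control mouse 2. Hpx, which encodes the heme carrier hemopexin, lay at 2253 and 2195 CPM in the control mice and 917 and 752 CPM in mice 3 and 4, while Saa2 (19.8 and 17.9 against 34.4 and 39.7 CPM) and Lcn2 (3.09 and 2.61 against 8.44 and 16.3 CPM) were higher in both libraries labelled HuR hKO (adjusted p-values 0.0636, 0.0920 and 0.103 in edgeR). Of 12 pericentral hepatocyte genes, 3 had an unadjusted p under 0.05, all with a higher level (Glul, Lect2 and Rhbg, log2 fold changes 0.53, 0.63 and 1.34). Of 11 periportal genes, 3 did so as well (Gls2, Sds and Hsd17b13, 0.46, 0.44 and 0.38), and the median of both lists was 0.06. The 3 pericentral genes became 0 without control mouse 1 or mouse 4, where 1 was lower without control mouse 1. The 3 periportal genes became 0 without control mouse 2 and 1 without mouse 4, and 1 was lower without either of these mice. The part of these differences in the values of Cyp3a11 was not tested.

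Markers of other liver cells were read beside these values. The summed level of 6 Kupffer cell markers was 136 and 140 CPM in the control mice and 161 and 148 CPM in mice 3 and 4, that of 5 endothelial markers 159 and 143 against 184 and 169 CPM, and that of 5 stellate cell markers 155 and 155 against 164 and 202 CPM. The 5 cholangiocyte markers summed to 52.5 and 27.5 against 39.6 and 49.8 CPM. Most of that sum was Spp1, at 31.5 and 22.3 against 34.8 and 41.9 CPM. Of the 4 cholangiocyte markers tested, Spp1 and Sox9 were fitted higher (log2 fold changes 0.51 and 0.11). Krt19 and Epcam were fitted lower (-2.38 and -0.56). Krt19 lay at 12.2 and 0.373 against 0.488 and 1.81 CPM, with control mouse 1 far above the other mice. An unadjusted p under 0.05 was found for 1 stellate cell marker (Col1a1, log2 fold change 0.63) and 1 cholangiocyte marker (Spp1, 0.51), both higher, and for 0 of the hepatocyte, Kupffer cell and endothelial markers. Both counts of 1 became 0 without mouse 4, and that of cholangiocytes also without control mouse 2, where 3 of its markers were lower. The 4 neutrophil markers summed to less than 1 CPM in each library, with Ly6g at 0. The 4 T and NK cell markers and the 3 B cell markers summed to at most 2.84 and 3.49 CPM, and 0 of those tested had an unadjusted p under 0.05. Their part in the Cyp3a values was not tested.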

How the data were processed

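Total liver RNA of 2 control mice and 2 mice labelled HuR hKO was sequenced. The authors deposited whole-number counts per gene without normalization, in 1 table of 46603 Ensembl genes and 4 columns, of which 0 were left without a group. Columns were matched by mouse number. The submitters' processing notes name RSEM and GRCm38, while versions, the annotation and the use of strand are not given in the sources used here. Whether RSEM's estimates were rounded is not stated. Symbols were found for 46005 genes, and positions and transcripts came from GENCODE M21 (GRCm38), promoter windows from RefSeq (GRCm38.p6), with all 8 members matched.

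Counts were filtered with filterByExpr (minimum 10, total 15), scaled with TMM factors (0.957 to 1.04) and compared with the quasi-likelihood test of edgeR 4.0.16 (R 4.3.3), with Benjamini-Hochberg adjustment over 13001 genes. CPM use TMM-scaled library sizes, and lengths are those of the longest coding transcript. The test was also run on simulated counts, and the share of changes it recovered there is not given here. Shares have 95% Wilson intervals. Alternatives were DESeq2 1.42.0 (size factors and Wald test), upper quartile factors, no scaling, no filter, 10 counts in every sample, edgeR's exact and robust tests, limma-voom (limma 3.58.1), each mouse left out, and Cyp3a41a and Cyp3a41b merged. Tables, alignments and figures used python 3.11.15, pandas 2.3.3, numpy 2.4.6, scipy 1.17.1, biopython 1.88 and matplotlib 3.10.9.

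The members, lists and tests were chosen with earlier results of these data known. The study used a fold of 1.8 with an unadjusted p under 0.05, which is counted beside the adjusted calls. Named genes are the Cyp3a genes, Elavl1, Nr1i2, Nr1i3, Rxra, Hnf4a, Nr3c1, Nr0b2 and Por, up to 3 genes with the smallest p of each other list, the defining genes of marker lists, and 3 genes of most similar pattern for Cyp3a11 and Cyp3a59. Cyb5a, Foxa1, Vdr, Cyp2c40 and Cyp2c69 were named after their values were seen, as were the promoter motifs. The groups share no mouse numbers, and no pairing was used.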

Additional observations from a re-analysis of the deposited data

How the results depend on the processing

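Of the values recomputed under the alternatives, 445 stayed on their side of the threshold or within the spread set for them, 60 moved, 22 reversed and 1 newly passed the threshold. Without scaling for library size the median log2 fold change of all genes was 0.31, Cyp3a59 was called (log2 fold change 0.97, adjusted p 0.0488, so 1 member by either threshold), the 8 genes together had a log2 ratio of 0.13, and Cyp3a11 (0.027), Nr1i3 (0.26), Hnf4a (0.24) and Nr3c1 (0.30) changed sign. Cyp3a13 was -0.0023 without the filter and Por -0.0038 in limma-voom. Leaving out each mouse in turn, with the lone mouse assumed to vary like the others, gave 0 to 3 members fitted higher, 0 called at an adjusted p under 0.05, and 0 to 1 past the fold of 1.8 with an unadjusted p under 0.05 (Cyp3a59, without control mouse 2 or without mouse 3). The log2 ratio of the 8 genes then ran from -0.29 to -0.13, and that of the 4 genes near 0 (0.22 with all mice) from -2.32 to 1.09, turning negative without control mouse 2 (-0.30) or without mouse 3. Log2 fold changes that changed sign ran from -0.085 to 0.082 (Cyp3a13), -0.35 to 0.32 (Cyp3a25), -0.16 to 1.05 (Cyp3a59), -0.29 to 0.15 (Nr1i3), -0.097 to 0.22 (Rxra), -0.34 to 0.29 (Hnf4a), -0.070 to 0.043 (Nr3c1), -0.35 to 0.46 (Nr0b2) and -0.28 to 0.25 (Por), while Cyp3a11 stayed between -0.37 and -0.21.

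Over all genes, 2 were called higher and 1 lower at an adjusted p under 0.05, against 80 and 81 without the filter, 50 and 35 in the DESeq2 Wald test, 69 and 51 in edgeR's exact test, 4 and 4 in the robust test, 130 and 25 without scaling, 18 and 25 without control mouse 1, 30 and 43 without control mouse 2, 0 and 0 without mouse 3, and 2 and 5 without mouse 4. With 2 mice in a group, smaller changes of the members than their intervals span could not be detected. Lists with 0 genes at an unadjusted p under 0.05 in a direction gained at most 1 when a mouse was left out, apart from the 3 cholangiocyte markers. Reads shared by Cyp3a25 and Cyp3a59, or by Cyp3a41a and Cyp3a41b, could not be reassigned from counts. No paired analysis was possible because the groups share no mouse numbers.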
